A study of Mus musculus with 4 samples.

Results

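Livers of mice that had already been exposed to ethylbenzene were compared 5 h after a further injection of ethylbenzene (the array E+E) or of phosphate-buffered saline, PBS (the array E+P). These are 2 of the 4 arrays of the series, 1 array per group, and they were compared across the 11513 genes, of 18193 on the array, whose mean signal over all 4 arrays passed a low-signal filter. Both groups were C57BL/6J mice, 2 months old, and both had received 2 intraperitoneal injections of ethylbenzene (7 mmol per kg each) 24 h apart. After 7 days without treatment, the E+E mice received a dose of 7 mmol per kg again and the E+P mice received PBS. The other arrays, P+P and P+E, came from mice given PBS in the first exposure and then PBS or ethylbenzene in the second. Liver RNA was pooled within each group before labelling, from 3 mice for E+P and P+P and from 5 mice for E+E and P+E, so the size of the pool follows the second exposure and cannot be told apart from it. With 1 pooled array per group there was no replicate error, no p-value was computed, and a difference of at least 2-fold was used only as a fixed rule of size for these arrays.

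Ethylbenzene is an aromatic solvent that liver cytochrome P450 enzymes oxidise to an alcohol, which is then oxidised further, conjugated and excreted. The liver senses foreign compounds through nuclear receptors such as CAR and PXR, which switch on genes for oxidation, conjugation and export. It also answers inflammatory cytokines, mainly interleukin 6 and interleukin 1, by making acute phase proteins, and in that state it commonly makes less of the proteins of its ordinary metabolism. Many liver genes also follow the time of day, through a loop in which the activators ARNTL and CLOCK drive their own inhibitors and a set of output genes.

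Signals are the deposited probe set intensities after quantile normalization over the 4 arrays. A log2 ratio is the difference of log2(signal + 43.2) between E+E and E+P, and a fold is the same difference on the linear scale, which understates differences between low signals. For folds, a signal below the filter level of 120.0 was raised to that level, and the fold is then given as "at least". Lists of genes are described by how many members past the filter were at least 2-fold higher or lower and by their median log2 ratio, which was -0.05 over all 11513 genes.

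The arrays carried liver RNA. All 12 measured hepatocyte markers passed the filter, with Alb, which encodes albumin, at a signal of 166300 on E+P and 172020 on E+E, and none of the 12 was 2-fold apart. The deposited median signals were 134.1 on E+P and 152.0 on E+E. Control probe sets against 18S ribosomal RNA gave a signal of 122 on E+P, 182 on E+E and, on P+P, 1872. The control probe sets of Pcx, whose signal at the 3' end over that at the 5' end tells of RNA length, gave a ratio of 7.21 on E+P and 12.0 on E+E, whereas those of Actb gave 3.84 and 3.77. On P+P and P+E the Pcx ratios were 23.5 and 6.15 and the Actb ratios 4.55 and 3.48. The part of these differences in the results below was not tested. Because the RNA came from whole liver, fewer cells of a type and less RNA per cell cannot be told apart.

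In all, 796 genes (6.91%) were at least 2-fold higher on E+E than on E+P and 777 (6.75%) were at least 2-fold lower. With low signals raised to the filter level, these counts were 631 and 577. Both directions held about as many genes, but the large ratios were mostly on the higher side. Past 4-fold there were 163 higher and 117 lower genes, past 8-fold 45 and 14, and past 32-fold 8 and 0. With low signals raised, these were 119 and 37, 35 and 6, and 8 and 0. Genes of low signal were called more often. When the genes were cut into 3 equal groups by mean signal, 20.5% of the lowest group were 2-fold apart or more, compared with 11.2% of the middle and 9.22% of the highest group. Where a gene called higher had 2 or more probe sets past the filter, all of them were higher for 215 of 265 genes, and of 252 such genes called lower, all probe sets were lower for 179. For many named genes, though not for all, the averaged log2 ratio is given where averaging all probe sets ended a call or moved it far. Such averages include probe sets that did not pass the filter. With the pseudocount at the median signal, Abcc4, Bmp6, Cbr3, Cdkn2c, Ddit4, Gpr182, Ngp, Nr0b2, Psmd3, Sirt7 and Tet3 were short of 2-fold. Under that setting so were Adh7, Cdh5, Eif2ak3, Fcgr2b, Hdac11, Il6ra, Marco, Slc11a2, Tet1, Upk1b, Urb1 and Zc3h12a. At a common 75th percentile Ddit4, Psmd3, Slc11a2, Tars and Xbp1 were short of it.

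**Figure D1:**
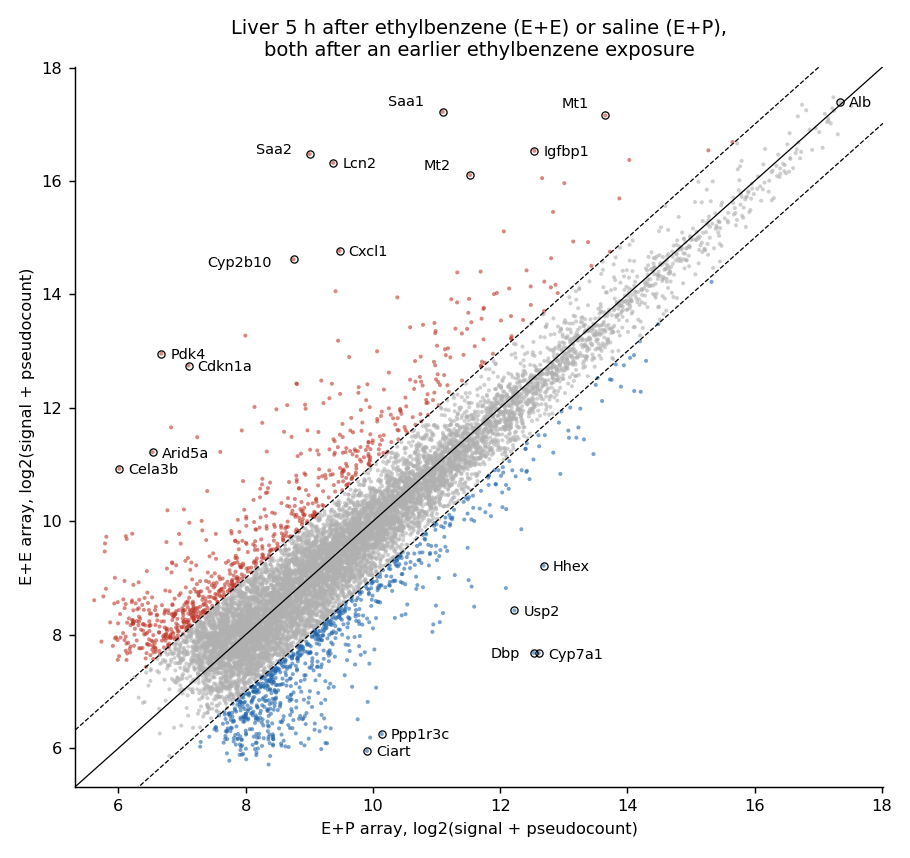
Each point is 1 of the 11513 genes past the filter, placed by its log2(signal + pseudocount) on the E+P array (horizontal) and on the E+E array (vertical), with the pseudocount at 43.2. Red points (796) lie at least 2-fold higher and blue points (777) at least 2-fold lower on E+E, beyond the dashed lines, and the named genes stand far from the diagonal except for Alb, which lies on it.

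The highest ratios belonged to inflammation, drug metabolism, metal binding and growth arrest. Saa2, a serum amyloid A gene, had a signal of 471 on E+P and 90924 on E+E, 177-fold higher. Lcn2, whose product lipocalin 2 binds bacterial iron carriers, was at 620.1 on E+P and 81707 on E+E, 123-fold higher, and Saa1, the other main serum amyloid A gene, was at 2145 on E+P and 152560 on E+E, 69.7-fold higher. Probe sets of such close relatives can share signal, here and in the metallothionein, orosomucoid and cytochrome P450 genes. Cyp2b10, the cytochrome P450 gene best known as a target of CAR, had a signal of 388 on E+P and 25103 on E+E, 58.4-fold higher, and its 3 probe sets gave log2 ratios of 5.94, 5.87 and 5.50. Pdk4, a kinase that shuts off glucose oxidation, was at 59 on E+P and 7895 on E+E, at least 48.6-fold higher. Cdkn1a, the cell cycle inhibitor p21, was at 94.1 on E+P and 6819.9 on E+E, at least 42.1-fold higher, and Cxcl1, a chemokine that attracts neutrophils, at 669 on E+P and 27856 on E+E, 39.2-fold higher. With its 2 probe sets averaged, the log2 ratio of Cdkn1a was 3.88, compared with 5.64. The E+P signals of Pdk4 and Cdkn1a lay below the filter level, so these transcripts were near background without the further dose.

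Not all of the highest ratios belonged to these groups. Fbf1, which encodes a protein of the cilium base, had a signal of 212 on E+P and 9859.9 on E+E, 38.8-fold higher, and Tacc2, which encodes a coiled-coil protein of centrosomes, was at 638 on E+P and 16995 on E+E, 25-fold higher. Each was represented by 1 probe set past the filter. Inhbb, a subunit of activin B, was at 108 on E+P and 2817 on E+E, at least 17.5-fold higher, but its other probe set had a log2 ratio of 0.43 and the average was 2.34. Tifa, an adaptor upstream of NF-kB, was at 657 on E+P and 9265 on E+E, 13.3-fold higher. The remaining genes of the 16 highest ratios, Mt2, S100a9, Igfbp1, Arid5a and Gadd45b, are described with their groups.

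The lowest ratios belonged to bile acid synthesis, the clock and liver transcription factors. Cyp7a1, which catalyses the first and controlling step from cholesterol to bile acids, had a signal of 6194 on E+P and 161 on E+E, 30.5-fold lower, with both probe sets lower (averaged log2 ratio -3.98). Dbp, a transcription factor at the output of the circadian clock, was at 5855 on E+P and 162 on E+E, 28.8-fold lower, and Usp2, a rhythmic deubiquitinase, at 4739 on E+P and 301 on E+E, 13.9-fold lower. Hhex, a homeobox factor of liver development, was at 6525 on E+P and 552 on E+E, 11-fold lower. These transcripts were well above background on E+P and close to the filter level, or a few times above it, on E+E.

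The other 12 were mixed in function. Tsc22d3, a gene that glucocorticoids typically induce, had a signal of 3043 on E+P and 317 on E+E, 8.56-fold lower, although its log2 ratio was -2.03 and -1.20 by its other probe sets past the filter and -0.71 without probe sets ending in _x_at, _s_at or _a_at. Angptl8, an insulin-responsive secreted factor that regulates lipoprotein lipase, was at 2079 on E+P and 255 on E+E, 7.11-fold lower. Ppp1r3c, which brings a phosphatase to glycogen, was at 1084 on E+P and 32.8 on E+E, at least 6.91-fold lower, but its other probe set had a log2 ratio of -0.65. Sucnr1, the receptor for succinate, was at 2153 on E+P and 290.4 on E+E, 6.58-fold lower, and Tob1, an antiproliferative factor, at 2956 on E+P and 418 on E+E, 6.5-fold lower (averaged log2 ratio -1.50). Mcm10, a DNA replication factor, was at 4314 on E+P and 409.6 on E+E, 9.62-fold lower, but the log2 ratio of its other probe set past the filter was -0.64. Ppargc1b, a coactivator of mitochondrial genes, was at 1017 on E+P and 90.7 on E+E, at least 6.5-fold lower, and the other 5 were Clec2d, Nrep, Paqr7, Btbd2 and Ciart.

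**Figure D2:**
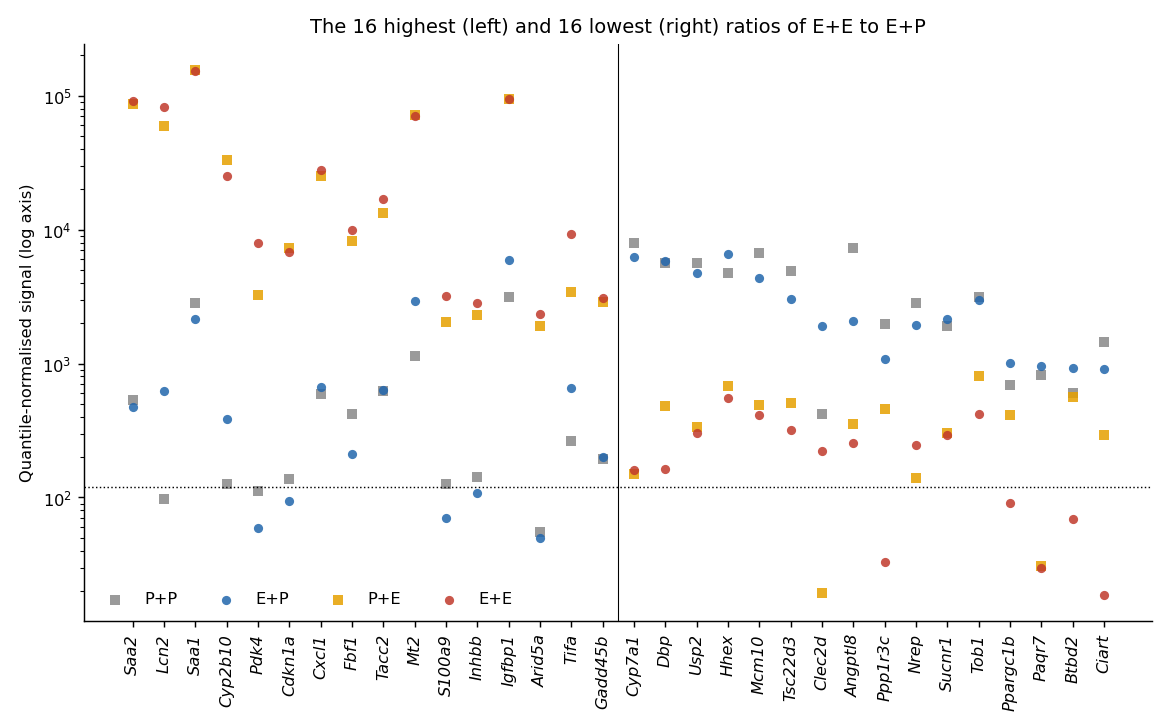
Quantile-normalised signals on a log axis for the genes with the 16 highest and 16 lowest ratios of E+E to E+P, on all 4 arrays, with the filter level as a dotted line. In all 32 genes both arrays of livers 5 h after ethylbenzene (P+E and E+E) lie beyond both after PBS (P+P and E+P). The choice of these genes fixed the order of E+E and E+P, but not the place of P+E and P+P. Over all genes past the filter, both ethylbenzene arrays lie above both PBS arrays in 22.3% and below both in 31.1%. Of the 796 genes called higher, 73.9% lie above in this way, and of the 777 called lower, 70.8% lie below.

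Acute phase proteins and their signalling had the highest median of the 41 pathway lists. Of 38 genes past the filter, 21 were at least 2-fold higher on E+E, where 6.91% of all genes were, and 1 was at least 2-fold lower. The median log2 ratio was 1.17. Among the 24 genes of secreted or surface proteins, 13 were at least 2-fold higher. Beside the serum amyloid A genes and Lcn2, these included Cd14, a co-receptor for bacterial lipopolysaccharide, at 359 on E+P and 4189 on E+E, 10.5-fold higher, and Steap4, a metal reductase induced by inflammation, at 6421 on E+P and 67834 on E+E, 10.5-fold higher. Orm2, an orosomucoid gene, was at 673 on E+P and 4814 on E+E, 6.78-fold higher, and Apcs, which encodes serum amyloid P, at 7244 on E+P and 44852 on E+E, 6.16-fold higher. Proteins that were abundant already differed less. The fibrinogen chain genes Fga (109810 on E+P and 166300 on E+E) and Fgb (114890 on E+P and 155520 on E+E) had log2 ratios of 0.60 and 0.44, and Hp, which encodes haptoglobin, had one of 0.94, all short of 2-fold, although that of Hp was 1.15 on the signals as deposited. On the signals as deposited, the log2 ratios of Fga and Fgb were 0.85 and 0.74, short of 2-fold as well. Quantile normalization sets every signal by its rank, and its part in these ratios was not tested.

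Of 9 receptor and signalling genes of this list, 5 were at least 2-fold higher. Il1r1, the receptor of interleukin 1, had a signal of 1492 on E+P and 10921 on E+E, 7.14-fold higher, and Osmr, the receptor of oncostatin M, was at 206 on E+P and 554 on E+E, 2.4-fold higher. Stat3, the factor that interleukin 6 activates, was at 2335 on E+P and 7549 on E+E, 3.19-fold higher, with all 4 probe sets higher, and Cebpd, a second factor of the acute phase, at 524 on E+P and 2276 on E+E, 4.09-fold higher. The receptor chain gene Il6ra was the 1 member at least 2-fold lower, at 1254 on E+P and 598 on E+E, 2.02-fold lower, and short of 2-fold with its probe sets averaged (log2 ratio -0.63). Feedback inhibitors were high as well, 3 of 5: Socs3, which blocks signalling by interleukin 6, was at 1292 on E+P and 15753 on E+E, 11.8-fold higher, and Socs2, which acts on the growth hormone receptor, at 1975 on E+P and 10154 on E+E, 5.05-fold higher.

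NF-kB is the transcription factor family that carries signals of interleukin 1 and tumour necrosis factor to the nucleus. Of 25 genes of the pathway past the filter, 6 were at least 2-fold higher and 2 lower, with a median log2 ratio of 0.49. Of 8 chemokine genes, Cxcl1 and Ccl4 were at least 2-fold higher, Ccl4 from near background at 24.2 on E+P and 351 on E+E, at least 2.42-fold higher. Ccl9, a chemokine for macrophages, was at 5217 on E+P and 6171 on E+E, 1.18-fold higher. Bcl3, a nuclear cofactor of NF-kB, had a signal of 1028 on E+P and 8133 on E+E, 7.63-fold higher, while Nfkbia, the classical feedback inhibitor, was at 4238 on E+P and 4935 on E+E, 1.16-fold higher. Map3k8, a kinase upstream of ERK, was at 11.9 on E+P and 664 on E+E, at least 4.34-fold higher, Tnfrsf1a, a receptor of tumour necrosis factor, at 2223 on E+P and 7755 on E+E, 3.44-fold higher, and Icam1, an adhesion protein for leukocytes, at 435 on E+P and 1075 on E+E, 2.34-fold higher. The subunit gene Nfkb2 was at 328 on E+P and 62.9 on E+E, at least 2.28-fold lower, though with all its probe sets averaged its log2 ratio was -0.76.

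The Cxcl1 promoter is shown because Cxcl1 had the highest ratio of this list. The 250 bases before the RefSeq start of Cxcl1 (GRCm38.p6, chr5:90890995-90891244, plus strand) hold the NF-kB element at 71 to 61 bases before the start, as matches on both strands that overlap, in capitals:
Cxcl1: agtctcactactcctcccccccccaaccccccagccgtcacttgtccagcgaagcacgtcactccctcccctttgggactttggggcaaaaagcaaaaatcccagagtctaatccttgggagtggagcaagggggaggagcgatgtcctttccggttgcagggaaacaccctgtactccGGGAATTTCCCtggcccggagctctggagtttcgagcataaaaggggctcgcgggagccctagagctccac
Of 32841 RefSeq promoters of the same length, 7.25% hold a match to this element on either strand. The same search found no match in the 250 bases before the start of Lcn2. A match is a description of the sequence and not a binding site.

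RNA-binding proteins that set the life of inflammatory mRNAs held further high ratios. Of 14 such genes, 5 were at least 2-fold higher and none was 2-fold lower, with a median log2 ratio of 0.32. Arid5a, which stabilises the mRNA of interleukin 6, had a signal of 49.6 on E+P and 2339.7 on E+E, at least 14.6-fold higher. Those that promote decay included Zfp36, which encodes tristetraprolin, at 2081 on E+P and 5369.7 on E+E, 2.55-fold higher, and Zfp36l1, its relative, at 6582 on E+P and 19116 on E+E, 2.89-fold higher. Btg2, a recruiter of the deadenylase, was at 408 on E+P and 2228 on E+E, 5.04-fold higher, and Zc3h12a, which encodes the nuclease regnase 1, at 85.5 on E+P and 299 on E+E, at least 2.1-fold higher (averaged log2 ratio 0.90). The other stabiliser, Elavl1, had a log2 ratio of -0.01, and 4 of the 12 decay genes were at least 2-fold higher.

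Immediate early genes encode factors made within minutes to hours of a stimulus. Of 32 past the filter, 14 were at least 2-fold higher and none was 2-fold lower, with a median log2 ratio of 0.76. Subunits of the transcription factor AP-1 led, with 6 of 7 at least 2-fold higher. Junb was at 449 on E+P and 4009.7 on E+E, 8.24-fold higher, Jun at 473 on E+P and 2412 on E+E, 4.76-fold higher, and Fosl2 at 209 on E+P and 1136 on E+E, 4.68-fold higher. Atf3, a stress-inducible partner of Jun, was at 26.1 on E+P and 810.1 on E+E, at least 5.23-fold higher. Egr1, a zinc finger factor downstream of ERK, was at 346 on E+P and 3014 on E+E, 7.86-fold higher, and Ier3, a survival gene, at 26.8 on E+P and 782 on E+E, at least 5.05-fold higher. In contrast, the 15 genes of the ErbB, HGF and Ras pathways held no member 2-fold apart (median log2 ratio 0.38), and Egfr, the receptor of epidermal growth factor, was at 6465 on E+P and 12766 on E+E with 4 of its 6 probe sets higher.

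Of 25 p53 targets and growth arrest genes, 8 were higher by 2-fold or more and 1 was lower, with a median log2 ratio of 0.32, and 6 of the 8 belonged to the 12 genes of growth arrest. All 3 Gadd45 genes, stress genes that arrest the cell cycle, were among the higher ones. Gadd45b was at 202 on E+P and 3064 on E+E, 12.7-fold higher, Gadd45a at 540.0 on E+P and 5674 on E+E, 9.8-fold higher, and Gadd45g at 2359 on E+P and 15402 on E+E, 6.43-fold higher. Fas, a death receptor, was at 1084 on E+P and 3869 on E+E, 3.47-fold higher, and Ddit4, an inhibitor of mTORC1, at 489.7 on E+P and 1067 on E+E, 2.08-fold higher. None of the 4 DNA repair genes of the list was 2-fold apart, and Perp, a p53 target in cell death, was at 3734 on E+P and 3651 on E+E. Sesn2, a stress-inducible inhibitor of mTORC1, was at 441 on E+P and 113 on E+E, at least 2.97-fold lower. However, its probe sets past the filter pointed opposite ways (averaged log2 ratio -0.32). Of 15 cell death genes (median log2 ratio -0.11), Bcl2l1, a survival gene, was 2.32-fold higher and Bmf, a killer of the same family, 2.44-fold lower, and no other member was 2-fold apart. With probe sets averaged, both were short of 2-fold (log2 ratios 0.65 and -0.88).

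Of 21 cell cycle genes, none was at least 2-fold higher and 4 were at least 2-fold lower, with a median log2 ratio of -0.08. Ccnd1, the cyclin that carries cells out of rest, had a signal of 2214 on E+P and 706 on E+E, 3.01-fold lower, with all 3 probe sets lower, and Cdkn2c, an inhibitor of its kinase, was at 611 on E+P and 246 on E+E, 2.26-fold lower. Pcna, the sliding clamp of replication, was at 2909.8 on E+P and 3111 on E+E, 1.07-fold higher.

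Mt1 and Mt2, which encode metallothioneins, small proteins that bind zinc and copper, had high ratios. Mt2 had a signal of 2907 on E+P and 70439 on E+E, 23.9-fold higher, and Mt1 of 12826 on E+P and 145880 on E+E, 11.3-fold higher. Mt3 did not pass the filter, and Mtf1, which encodes the factor that induces metallothioneins, had a log2 ratio of -0.44. Among 11 zinc and manganese carriers, Slc39a14, an importer of zinc, manganese and iron, was at 1958 on E+P and 11516 on E+E, 5.78-fold higher, and Slc30a10, a manganese exporter, at 448 on E+P and 1763 on E+E, 3.67-fold higher. Of the 28 metal genes in all, 5 were at least 2-fold higher and 3 lower, with a median log2 ratio of 0.28.

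The promoters of Mt1 and Mt2 are shown because these neighbouring genes on chromosome 8 had high ratios together. Both hold matches to the metal response element, the type of site of the zinc-sensing factor MTF1. Here too a match is a description of the sequence and not a binding site. The element was searched as TGCACNC or TGCGCNC on both strands, and 21.4% of 32841 RefSeq promoters of 250 bases hold a match. In the 250 bases before the start (GRCm38.p6, plus strand, chr8:94178839-94179088 for Mt1 and chr8:94172368-94172617 for Mt2), Mt1 held 1 match and Mt2 held 3, in capitals:
Mt1: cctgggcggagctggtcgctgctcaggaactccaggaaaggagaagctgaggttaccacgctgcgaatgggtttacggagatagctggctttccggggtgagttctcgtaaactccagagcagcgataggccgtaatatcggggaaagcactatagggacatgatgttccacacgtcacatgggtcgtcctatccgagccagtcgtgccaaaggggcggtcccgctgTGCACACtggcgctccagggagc
Mt2: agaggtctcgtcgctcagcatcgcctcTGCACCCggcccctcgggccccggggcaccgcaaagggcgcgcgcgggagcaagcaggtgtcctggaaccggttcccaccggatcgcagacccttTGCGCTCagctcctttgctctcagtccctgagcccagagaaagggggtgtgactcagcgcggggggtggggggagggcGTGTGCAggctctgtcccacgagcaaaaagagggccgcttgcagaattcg

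Of 14 iron genes, 1 was at least 2-fold higher and 3 were at least 2-fold lower, where 6.91% and 6.75% of all genes were. Their median log2 ratio was 0.01. Slc40a1, which encodes the iron exporter ferroportin, had a signal of 9353 on E+P and 2801 on E+E, 3.3-fold lower, and Tfrc, the transferrin receptor, was at 1639 on E+P and 592 on E+E, 2.65-fold lower, with all 3 probe sets lower. Bmp6, an endothelial signal that induces hepcidin, was at 422 on E+P and 170.1 on E+E, 2.18-fold lower, while Hamp, which encodes hepcidin itself, was at 73384 on E+P and 96784 on E+E, 1.32-fold higher. The export gene and the uptake gene were thus low on the same array. Slc11a2, another iron carrier and the 1 higher gene, lay just past the 2-fold line (412 on E+P and 868 on E+E). It was short of that line on the signals as deposited (log2 ratio 0.99) and with its probe sets averaged (0.52). Hmox1, which opens the heme ring and releases its iron, was at 404 on E+P and 5436 on E+E, 12.2-fold higher, and it was the only one of 15 heme genes at least 2-fold apart, with a list median of -0.01.

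Drug metabolism genes did not differ as a group. Of 23 genes of CAR, PXR and the Cyp2a, Cyp2b, Cyp2c and Cyp3a subfamilies, 3 were at least 2-fold higher and 1 lower, with a median log2 ratio of 0.01. Beside Cyp2b10, the higher genes were Cyp3a13 (7623 on E+P and 16618 on E+E, 2.17-fold higher) and Cyp2c39 (80.3 on E+P and 303 on E+E, at least 2.12-fold higher). Cyp3a11, a target of PXR, was at 119050 on E+P and 122550 on E+E. Nr1i3, which encodes CAR, was the member at least 2-fold lower, at 4804 on E+P and 1729.7 on E+E, 2.73-fold lower. The receptor gene and its best-known target thus stood at opposite ends of the list.

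Enzymes that act on ethylbenzene and its products differed little. Of 21 such genes, 1 was at least 2-fold higher and 1 lower, and 17 of 21 had a log2 ratio below 0 (median -0.20). Cyp2e1, the main P450 for small solvents, had a signal of 144270 on E+P and 134730 on E+E and a log2 ratio of -0.10, which turned to 0.23 on the signals as deposited. Cyp2f2, another P450 that oxidises aromatic compounds, was at 56105 on E+P and 49055 on E+E, 1.14-fold lower, and Adh1, the main liver alcohol dehydrogenase, at 92098 on E+P and 72015 on E+E, 1.28-fold lower. The member at least 2-fold higher was the carbonyl reductase gene Cbr3 (153 on E+P and 405 on E+E, 2.28-fold higher). Adh7 was at 342 on E+P and 129 on E+E, 2.23-fold lower, but its log2 ratio was 0.22 with its probe sets averaged.

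Among conjugation and export genes, 3 of 48 were at least 2-fold higher and 1 lower, with a median log2 ratio of -0.29. Calls among the 19 glutathione transferases were few, 2 on the higher side and 1 on the lower side, with a median of 0.04. The shares over all genes were 6.91% and 6.75%. Gstt3 was at 2029 on E+P and 6129.7 on E+E, 2.98-fold higher, and Gstt2 at 3569 on E+P and 1553 on E+E, 2.26-fold lower. All 5 genes of acyl transfer and 9 of 10 UDP-glucuronosyltransferase genes had ratios below 0, none of them 2-fold. Abcc4, an exporter of conjugates, was at 219 on E+P and 511 on E+E, 2.12-fold higher.

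The aryl hydrocarbon receptor and NRF2 are further sensors of foreign and reactive compounds. Tiparp, a target of the first that encodes an ADP-ribosyltransferase, had a signal of 314 on E+P and 3981 on E+E, 11.3-fold higher, and the receptor gene Ahr was at 1429 on E+P and 4128 on E+E, 2.83-fold higher. Cyp1a1 (133 on E+P and 213 on E+E) and Cyp1a2 (39431 on E+P and 26550 on E+E), its classical targets, were not 2-fold apart. Of 27 genes of the NRF2 pathway, only Hmox1 and Abcc4 were at least 2-fold higher and none was lower, with a median log2 ratio of 0.09. Nqo1, its textbook target, was at 211 on E+P and 245 on E+E, 1.14-fold higher, and Gclc, the rate-limiting enzyme of glutathione synthesis, at 10154 on E+P and 7194 on E+E, 1.41-fold lower.

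Protein-folding genes gave mixed ratios. In the unfolded protein and integrated stress list, 3 of 37 were at least 2-fold higher and 4 lower, with a median log2 ratio of 0.44. Of 14 chaperones and folding enzymes of the endoplasmic reticulum, 13 had a ratio above 0 (median 0.58), although only Pdia4 (1955 on E+P and 4887 on E+E, 2.47-fold higher) reached 2-fold, and it did not with its probe sets averaged (0.71). Xbp1, a factor that induces such chaperones, was at 13473 on E+P and 27553 on E+E, 2.04-fold higher, and Chac1, a glutathione-degrading enzyme induced through ATF4, at 1110.4 on E+P and 5078 on E+E, 4.44-fold higher. The stress sensor genes Ern1 (2323 on E+P and 928 on E+E, 2.44-fold lower) and Eif2ak3 (662 on E+P and 297 on E+E, 2.07-fold lower) were lower, but short of 2-fold with their probe sets averaged.

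Of 20 heat shock genes, 2 were higher by 2-fold or more and 4 lower. The small heat shock protein genes Hspb8 (3389 on E+P and 13865 on E+E, 4.05-fold higher) and Hspb1 (2262 on E+P and 5358 on E+E, 2.34-fold higher) were higher. Cryab, of the same family, was at 351 on E+P and 22.2 on E+E, at least 2.42-fold lower. Its log2 ratio was -0.49 without probe sets ending in _x_at, _s_at or _a_at. Hspa1b, an inducible HSP70, was at 968 on E+P and 349 on E+E, 2.58-fold lower, with all 3 probe sets lower, and the co-chaperone genes Dnajb4 and Dnaja1 were 2.4-fold lower and 2.23-fold lower (averaged log2 ratio of Dnaja1 -0.80). Hspa8, the constitutive HSP70, was at 45433 on E+P and 48658 on E+E, and the list had a median log2 ratio of 0.01. The classical inducible chaperone was thus on the lower side.

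Liver-enriched transcription factors had the lowest median of all 41 pathway lists. Of 19 past the filter, 11 were at least 2-fold lower, where 6.75% of all genes were, and 1 was higher. The median log2 ratio was -1.10. The 3 Foxa genes, pioneer factors that open liver enhancers, were among them: Foxa1 was at 1358 on E+P and 281 on E+E, 4.32-fold lower, Foxa3 at 1693 on E+P and 571 on E+E, 2.83-fold lower, and Foxa2 at 1712 on E+P and 657 on E+E, 2.51-fold lower. Cebpa, a factor of hepatocyte differentiation, was at 7724 on E+P and 3377 on E+E, 2.27-fold lower, whereas Cebpb, its relative in inflammation, was the higher member at 7442 on E+P and 18393 on E+E, 2.46-fold higher. Nr2f2, a nuclear receptor, was 2.6-fold lower, but 1 of its 3 probe sets past the filter was higher and the average was short of 2-fold (-0.87 on the log2 scale). The others at least 2-fold lower, besides Hhex and Nr1i3, were Tbx3, Onecut1, Onecut2 and Esrra. Hnf4a, the central factor of the hepatocyte, was at 22133 on E+P and 25375 on E+E, with 1 probe set higher and 3 lower.

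Genes that mark the position of hepatocytes between the portal and the central vein were low in part. Of 14 pericentral genes, most of them dependent on Wnt signals, 6 were at least 2-fold lower (median log2 ratio -0.65), and of 8 periportal genes, 2 were (median -0.40). No member of either set was at least 2-fold higher. Rnf43 and Znrf3, ubiquitin ligases that remove Wnt receptors, were at 578 on E+P and 24.6 on E+E (at least 3.8-fold lower) and at 597 on E+P and 168 on E+E (3.03-fold lower). Rhbg, an ammonium carrier, was at 467 on E+P and 75.3 on E+E, at least 3.13-fold lower, and Slc1a2, a glutamate carrier, at 3852 on E+P and 1573 on E+E, 2.41-fold lower. Lgr5, a receptor for R-spondins, was at 511 on E+P and 159 on E+E, 2.73-fold lower, but at 0.13 on the log2 scale with its probe sets averaged. Averaging also ended the calls of Slc1a2 (-0.36) and Znrf3 (-0.63). The abundant pericentral P450 genes Cyp2e1 and Cyp1a2 stayed within 2-fold. On the periportal side, Pck1 was 2.15-fold lower, with both probe sets past the filter lower, and Hsd17b6 was 2.88-fold lower with probe sets pointing both ways. With probe sets averaged their log2 ratios were -0.14 and -0.53. The average of Pck1 includes a probe set that did not pass the filter (3.2 on E+P and 118 on E+E).

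Bile acid genes apart from Cyp7a1 differed less. Of 31, none was at least 2-fold higher and 4 were lower, with a median log2 ratio of -0.22. Cyp7b1, the hydroxylase of the alternative pathway, had a signal of 20037 on E+P and 7235 on E+E, 2.76-fold lower, but an averaged log2 ratio of -0.61. Nr0b2, which encodes the repressor SHP, was at 1356 on E+P and 610.3 on E+E, 2.14-fold lower, and Abcg5, a sterol exporter, at 7947 on E+P and 3874 on E+E, 2.04-fold lower. None of the 6 regulators of the list was at least 2-fold higher. Scp2, which carries sterols and acts in side-chain oxidation, was at 108650 on E+P and 93525 on E+E.

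The circadian clock list held both directions. Of 23 genes, 10 were lower by 2-fold or more and 4 higher, with a median log2 ratio of -0.68. In the inhibitory arm all 6 genes had ratios below 0. Per3 was at 941 on E+P and 137 on E+E, 5.48-fold lower (averaged log2 ratio -1.13), Ciart at 916 on E+P and 18.6 on E+E, at least 5.88-fold lower, and Per1 at 465 on E+P and 28.6 on E+E, at least 3.11-fold lower. Tef, a relative of Dbp, was at 5841 on E+P and 2135 on E+E, 2.7-fold lower, and all 3 genes of that family had ratios below 0. Noct, a rhythmic phosphatase, was at 2454 on E+P and 487 on E+E, 4.71-fold lower. Of 4 genes of the activating arm and its regulators, 2 were at least 2-fold higher: Arntl was at 192 on E+P and 747 on E+E, 3.36-fold higher, and Nfil3, a repressor of the Dbp type of target, at 632 on E+P and 2680 on E+E, 4.04-fold higher. The others, Clock and Rora, had log2 ratios of 0.05 and -0.58. Leap2, a liver peptide that antagonises ghrelin, was at 2518 on E+P and 14818 on E+E, 5.8-fold higher. The hour of the day at killing, 5 h after injection, was not stated in the labels.

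The Per1 promoter is shown because the activating arm acts through the E-box CACGTG. Of the 250 bases before the first RefSeq start of Per1 (GRCm38.p6, chr11:69098699-69098948, plus strand), bases 166 to 161 before the start match it, in capitals:
Per1: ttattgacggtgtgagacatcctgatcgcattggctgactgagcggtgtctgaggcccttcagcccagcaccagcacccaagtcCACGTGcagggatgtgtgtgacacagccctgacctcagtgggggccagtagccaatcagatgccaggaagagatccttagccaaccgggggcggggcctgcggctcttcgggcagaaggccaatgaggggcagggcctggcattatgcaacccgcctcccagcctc
This palindrome is in 6.02% of 32841 RefSeq promoters of the same length, and the same search found no match before the other Per1 start or before the start of Dbp.

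Genes that glucocorticoids typically induce split, with 3 of 20 at least 2-fold higher and 4 lower, and a median log2 ratio of -0.01. Mt2 and Igfbp1 were at the high end, and Tsc22d3, Per1 and Pck1 at the low end. Tat, a tyrosine-degrading enzyme, was at 41471 on E+P and 65181 on E+E, 1.57-fold higher, and Tdo2, a tryptophan-degrading one, at 86463 on E+P and 76318 on E+E, 1.13-fold lower.

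Sterol synthesis genes were low, and genes of sterol control split. Of 17 enzymes, 5 were at least 2-fold lower, none was higher and 15 had a ratio below 0 (median log2 ratio -0.77). Msmo1, a methylsterol oxidase, was at 7844 on E+P and 1783 on E+E, 4.32-fold lower (log2 ratio -1.04 without probe sets ending in _x_at, _s_at or _a_at), Idi1, an isomerase of isoprenoid units, at 3659.6 on E+P and 1046 on E+E, 3.4-fold lower, and Mvk, mevalonate kinase, at 687 on E+P and 264 on E+E, 2.38-fold lower. The 2 Insig genes, whose products hold the sterol sensor in the endoplasmic reticulum, stood apart: Insig2 was at 2523 on E+P and 21388 on E+E, 8.35-fold higher, and Insig1 at 8623 on E+P and 2798 on E+E, 3.05-fold lower. Abca1, which exports cholesterol to lipoproteins, was at 5674 on E+P and 14364 on E+E, 2.52-fold higher. Srebf2, the factor that drives the pathway, was at 307 on E+P and 833 on E+E, 2.5-fold higher, with 1 of its 2 probe sets lower and an averaged log2 ratio of 0.58.

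Fatty acid and triglyceride genes differed in both directions, with 6 of 39 at least 2-fold higher, 7 lower and a median log2 ratio of -0.27. Srebf1, the driver of fatty acid synthesis, had a signal of 9563 on E+P and 3179.6 on E+E, 2.98-fold lower. Its target Fasn, fatty acid synthase, was at 11557 on E+P and 5376 on E+E, 2.14-fold lower, and Fads2, a desaturase, at 6217 on E+P and 2519 on E+E, 2.44-fold lower. Lpin2, a phosphatase on the way to triglyceride, was at 10159 on E+P and 2743 on E+E, 3.66-fold lower. Scd1, another desaturase, was at 140860 on E+P and 148790 on E+E. Of 12 lipid droplet genes, 3 were higher by 2-fold or more and 1 lower, with a median of 0.06. Among the coat protein genes, Plin2 was at 9032 on E+P and 31231 on E+E, 3.45-fold higher, and Plin4 at 116 on E+P and 873 on E+E, at least 5.61-fold higher, while Plin3 and Plin5 had log2 ratios of -0.14 and 0.56. G0s2, an inhibitor of triglyceride breakdown, was at 2092 on E+P and 676 on E+E, 2.97-fold lower.

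Genes of fat oxidation differed little, while 2 of their 3 regulators were at least 2-fold lower. None of 13 mitochondrial oxidation genes was 2-fold apart. Ppara, the receptor that induces them, had a signal of 5403 on E+P and 1828 on E+E, 2.91-fold lower, with all 3 probe sets lower, and its coactivator gene Ppargc1a was at 331 on E+P and 45 on E+E, at least 2.29-fold lower, though at -0.97 on the log2 scale with its probe sets averaged. Bdh1, an enzyme of ketone bodies, was at 13486 on E+P and 5754 on E+E, 2.33-fold lower. The genes that gate pyruvate oxidation split, with Pdk4 high, Pdk2 at 1661 on E+P and 655 on E+E, 2.44-fold lower, and the opposing phosphatase gene Pdp2 at 565 on E+P and 1761 on E+E, 2.97-fold higher. The whole list of 37 had a median of -0.13.

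Among plasma lipid proteins, 2 of 22 genes were higher by 2-fold or more and 2 lower, with a median log2 ratio of -0.04. Angptl4, an inhibitor of lipoprotein lipase, was at 3059.7 on E+P and 8650.1 on E+E, 2.8-fold higher, opposite to Angptl8. Apoa4, an apolipoprotein, was at 3314 on E+P and 7161 on E+E, 2.15-fold higher, and Lipg, endothelial lipase, at 773 on E+P and 92.3 on E+E, at least 5-fold lower (averaged log2 ratio -1.36). Apoa1, the main protein of high density lipoprotein, was at 187490 on E+P and 163590 on E+E.

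Genes of the insulin and IGF axis gave both directions. Of 20, 3 were at least 2-fold higher and 6 lower, with a median log2 ratio of -0.18. Igfbp1, a binding protein that restrains IGF, had a signal of 5900.1 on E+P and 94724 on E+E, 15.9-fold higher, whereas Igfbp2 was at 22898 on E+P and 11349 on E+E, 2.01-fold lower. The insulin receptor substrates split, with Irs2 at 305 on E+P and 765 on E+E, 2.32-fold higher, and Irs1 at 961 on E+P and 409 on E+E, 2.22-fold lower. Foxo3, a forkhead factor that insulin holds out of the nucleus, was at 1411 on E+P and 431 on E+E, 3.07-fold lower. Igf1 itself was at 22013 on E+P and 22684 on E+E.

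In the glucose list, 4 of 25 genes were at least 2-fold lower and 1 higher (median log2 ratio -0.27), and 3 of the lower ones act on glycogen. Gys2, liver glycogen synthase, was at 12385 on E+P and 4412 on E+E, 2.79-fold lower, and Ppp1r3b, a phosphatase subunit that activates it, at 4482 on E+P and 2091 on E+E, 2.12-fold lower, in the direction of Ppp1r3c. Pck1, the control enzyme of gluconeogenesis, was at 40929 on E+P and 19056 on E+E, 2.15-fold lower, and Fbp1, a later step, at 90455 on E+P and 73828 on E+E. Pfkfb3, which speeds glycolysis, was at 776 on E+P and 2277 on E+E, 2.83-fold higher.

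Ribosome biogenesis genes formed a group of modest, mostly positive ratios. Of 32, 24 had a ratio above 0, 6 were at least 2-fold higher and 1 lower, with a median log2 ratio of 0.48. Rrs1, an assembly factor of the large subunit, was at 673 on E+P and 1922 on E+E, 2.75-fold higher, Mybbp1a, a nucleolar regulator, at 1813 on E+P and 4792 on E+E, 2.61-fold higher, and Nop58, a core protein of small nucleolar ribonucleoproteins, at 356 on E+P and 914 on E+E, 2.4-fold higher. The nucleolar proteins nucleolin and nucleophosmin did not share this: Ncl was at 4554 on E+P and 3583 on E+E and Npm1 at 7254 on E+P and 5812 on E+E, neither 2-fold apart. Of 26 amino acid carrier and tRNA synthetase genes (median -0.04), Slc38a2, an importer, was at 4472 on E+P and 17576 on E+E, 3.9-fold higher, and Tars, the threonine synthetase, was 2.05-fold higher. Of 7 polyamine genes (median -0.02), only Sat1, which acetylates polyamines for breakdown, was 2-fold apart, at 3786 on E+P and 16399 on E+E, 4.29-fold higher.

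In the BMP and TGF-beta list (20 genes, median log2 ratio -0.01), ligands and targets stood apart. Of 7 ligand genes, 6 had ratios below 0, with Inhbb the exception. Among the 6 was Inhba at 301 on E+P and 30.9 on E+E, at least 2.11-fold lower (averaged log2 ratio -1.19). Of 8 target genes, 4 were at least 2-fold higher. These included the 3 Id genes, inhibitors of differentiation factors, with Id1 at 403 on E+P and 1614 on E+E, 3.71-fold higher, Id2 at 2655 on E+P and 10122 on E+E, 3.77-fold higher, and Id3 at 2947 on E+P and 11621 on E+E, 3.9-fold higher. Smad1, the factor that carries BMP signals, was at 1298 on E+P and 3568 on E+E, 2.69-fold higher.

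Cytoskeletal genes held a few high ratios. The tubulin genes Tubb2a (612 on E+P and 5458 on E+E, 8.4-fold higher) and Tubb6 (125 on E+P and 1437 on E+E, 8.8-fold higher) and the actin gene Actg1 (5416 on E+P and 21939 on E+E, 4.03-fold higher) were higher, each by every probe set past the filter (averaged log2 ratios of Tubb2a and Tubb6 2.11 and 1.86), while the list of 29 had a median log2 ratio of 0.21. Of 27 chromatin genes, 4 were at least 2-fold higher, Gadd45a and Gadd45b with Tet1 (141 on E+P and 378 on E+E, 2.29-fold higher) and Tet3 (153 on E+P and 366 on E+E, 2.08-fold higher), enzymes that remove DNA methylation. Hdac11 and Sirt7, deacetylases, were 2.06-fold lower and 2.07-fold lower. With probe sets averaged, the log2 ratios of Tet1 and Hdac11 were 0.24 and -0.73.

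Sex-biased genes had a median log2 ratio of -0.45. Of 10 male-biased genes, 4 were at least 2-fold lower, among them Hsd3b5, a steroid dehydrogenase, at 11273 on E+P and 2285 on E+E, 4.86-fold lower, and Susd4, a complement regulator, at 997 on E+P and 170.5 on E+E, 4.87-fold lower. Elovl3, a fatty acid elongase that is also rhythmic, went the other way at 1946 on E+P and 7147 on E+E, 3.61-fold higher. None of 6 female-biased genes was 2-fold apart, and the sex of the mice is not given in the sources used here.

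Other groups lay near the bulk of genes. The respiratory chain list (24 genes, median log2 ratio -0.20) and the urea cycle and amino acid breakdown list (26 genes, median -0.13) held no gene 2-fold apart. Of 27 proteasome subunits, 1 was at least 2-fold higher (Psmd3, 1104 on E+P and 2315 on E+E, 2.06-fold higher), with a median of -0.01. Of 29 interferon genes (median 0.01), 3 were higher by 2-fold or more and 1 was lower, with Rsad2, an antiviral enzyme, at 507 on E+P and 1289.7 on E+E, 2.42-fold higher, and Ddx58, the RNA sensor RIG-I, at 807 on E+P and 303 on E+E, 2.46-fold lower (averaged log2 ratio -0.64). Complement and coagulation proteins had 2 of 37 members at least 2-fold lower, none higher and a median of -0.25. Of 17 autophagy and lysosome genes, Ulk1, the kinase that starts autophagy, was the one at least 2-fold apart (702 on E+P and 1844 on E+E, 2.53-fold higher).

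**Figure D3:**
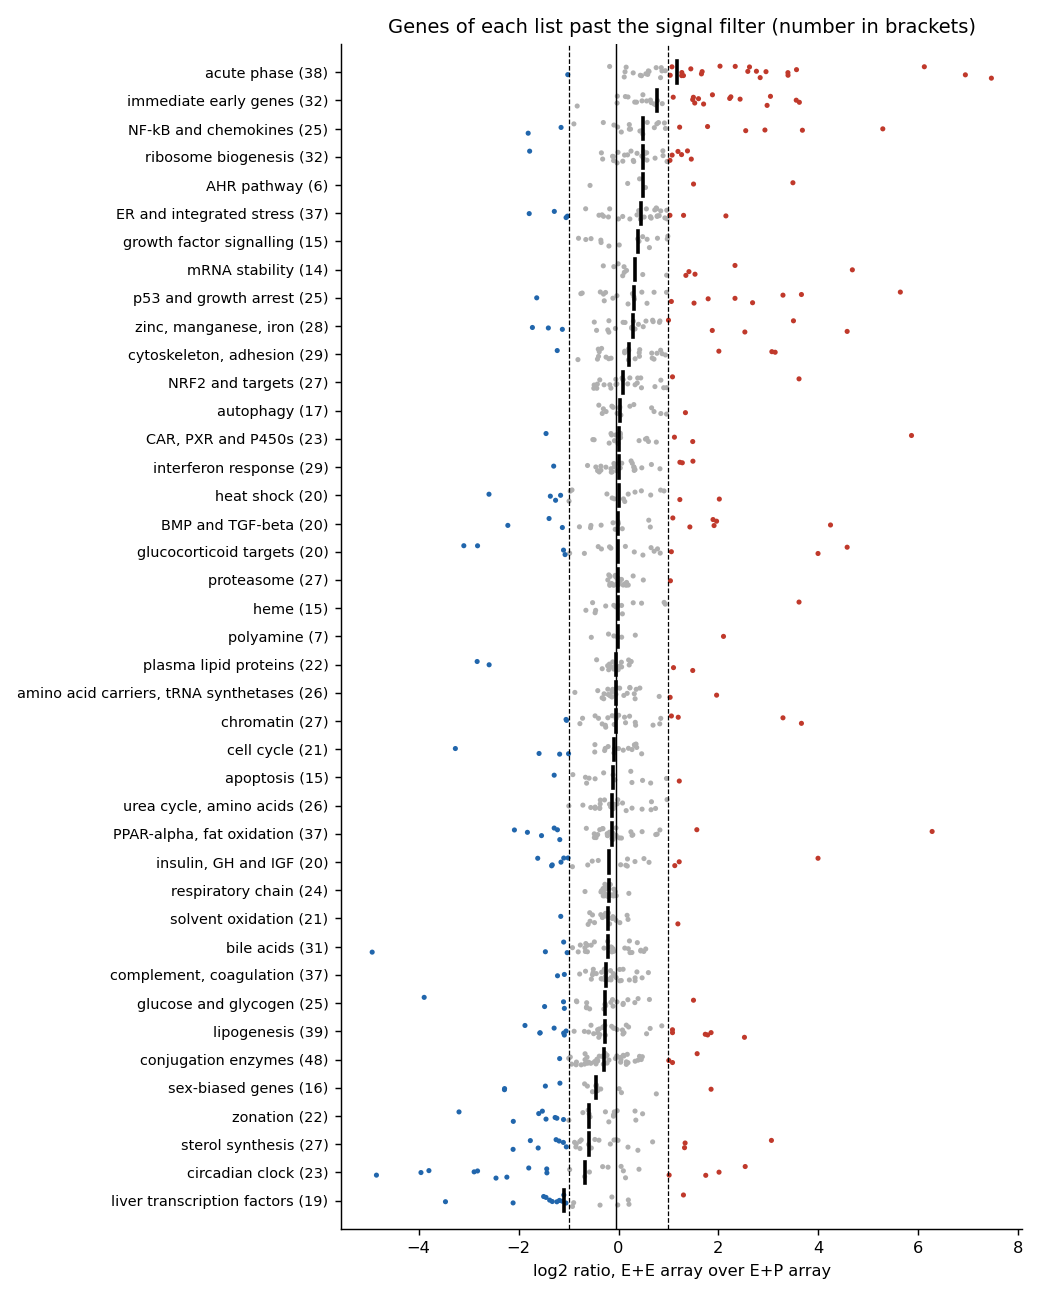
Log2 ratios of E+E to E+P for the members of the 41 pathway lists past the filter, 1 point per gene, ordered by list median (thick bars), with dashed lines at 2-fold and a thin line at the median of all genes (-0.05). The acute phase list lies highest (median 1.17) and liver transcription factors lowest (median -1.10), while the proteasome and respiratory chain lists are narrow.

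Markers of other cells were set beside these groups. All 12 Kupffer cell markers had a ratio below 0, where 6239 of all 11513 genes did. The markers had a median log2 ratio of -0.57 and a summed signal of 37577 on E+P and 21445 on E+E. At least 2-fold lower were 2 of them, Slc40a1, which hepatocytes also express, and Marco, a scavenger receptor, at 659.7 on E+P and 308 on E+E. Marco lay at the 2-fold line and was short of it under 4 alternatives, among them the signals as deposited (-0.97). Csf1r, the receptor for the growth factor of macrophages, was at 6760.3 on E+P and 4121 on E+E, 1.63-fold lower, and Clec4f, a lectin particular to Kupffer cells, at 2759 on E+P and 2118 on E+E, 1.3-fold lower. On P+E against P+P the median of the Kupffer cell markers was -0.11, and their summed signal was 27854 on P+P and 19218 on P+E. The sum was thus lower after ethylbenzene in both comparisons and highest on E+P. The part of Kupffer cells in the iron and complement values was not tested.

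Neutrophil markers were higher in part. Of 11 measured, 7 passed the filter and 3 were at least 2-fold higher, with a summed signal over all 11 of 1325 on E+P and 7379.6 on E+E. Most of the difference between these sums lay in S100a8 and S100a9. Both were near or below the filter level on the PBS arrays (116 and 125 on P+P), so they could pass the filter through P+E and E+E. The calprotectin subunit genes had the largest differences, with S100a9 at 70.3 on E+P and 3183 on E+E, at least 19.8-fold higher, and S100a8 at 151 on E+P and 2348 on E+E, 12.3-fold higher. Ngp, a granule protein of neutrophil precursors, was at 138 on E+P and 413 on E+E, 2.52-fold higher. Csf3r, the receptor for their growth factor, was at 231 on E+P and 248 on E+E, and Mmp8 and Mmp9, granule proteases, were at 163 on E+P and 267 on E+E and at 157 on E+P and 269.9 on E+E, none of them 2-fold apart. The part of neutrophils in the acute phase and chemokine values was not tested.

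Enzymes of the exocrine pancreas were detected on the E+E array. Of 16 acinar markers measured, 14 passed the filter and 11 were at least 2-fold higher, with a median log2 ratio of 1.68 and a summed signal of 3605 on E+P and 11285 on E+E. On E+P, 10 of the 16 lay below the filter level, and on E+E none did. The filter used the mean of all 4 arrays, so genes low on both PBS arrays could pass through P+E and E+E. Ctrb1 (10.8 on P+P and 785 on P+E) and Cpa1 (14.4 on P+P and 461 on P+E) passed in this way. The count of higher genes among the 14 and their median therefore follow in part from the filter. Cela3b, an elastase gene, had a signal of 21.4 on E+P and 1903 on E+E, at least 11.9-fold higher (averaged log2 ratio 2.85), Ctrb1, a chymotrypsinogen gene, was at 12.9 on E+P and 804 on E+E, at least 5.19-fold higher, and Cpa1, a carboxypeptidase gene, at 18.4 on E+P and 469.9 on E+E, at least 3.14-fold higher. Cela1, another elastase gene, was at 1904 on E+P and 1764 on E+E and did not share these ratios. Of 7 islet markers measured, none passed the filter. The part of pancreatic RNA in other results was not tested.

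Sinusoidal endothelial markers split, with Lyve1, a hyaluronan receptor, at 401 on E+P and 1747 on E+E, 4.03-fold higher, and Cdh5, the endothelial cadherin, at 370.4 on E+P and 805 on E+E, 2.05-fold higher, against Gpr182, a scavenger of chemokines, at 718 on E+P and 317 on E+E, 2.11-fold lower, and Fcgr2b, an Fc receptor, at 3568 on E+P and 1746 on E+E, 2.02-fold lower. Their median log2 ratio was -0.26, and Cdh5 and Fcgr2b were short of 2-fold with probe sets averaged (0.80 and -0.73). None of the 11 stellate cell and fibroblast markers was 2-fold apart, with a median of -0.04. Few markers of lymphocytes, bile ducts, fat, mesothelium and skeletal muscle passed the filter (1 of 7 for T and NK cells, 4 of 5 for B cells, 3 of 6, 2 of 5, 2 of 5 and 4 of 6). All 5 red cell precursor markers had ratios below 0 (median -0.58), with Alas2, the erythroid enzyme of heme synthesis, at 2689 on E+P and 1924 on E+E.

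**Figure D4:**
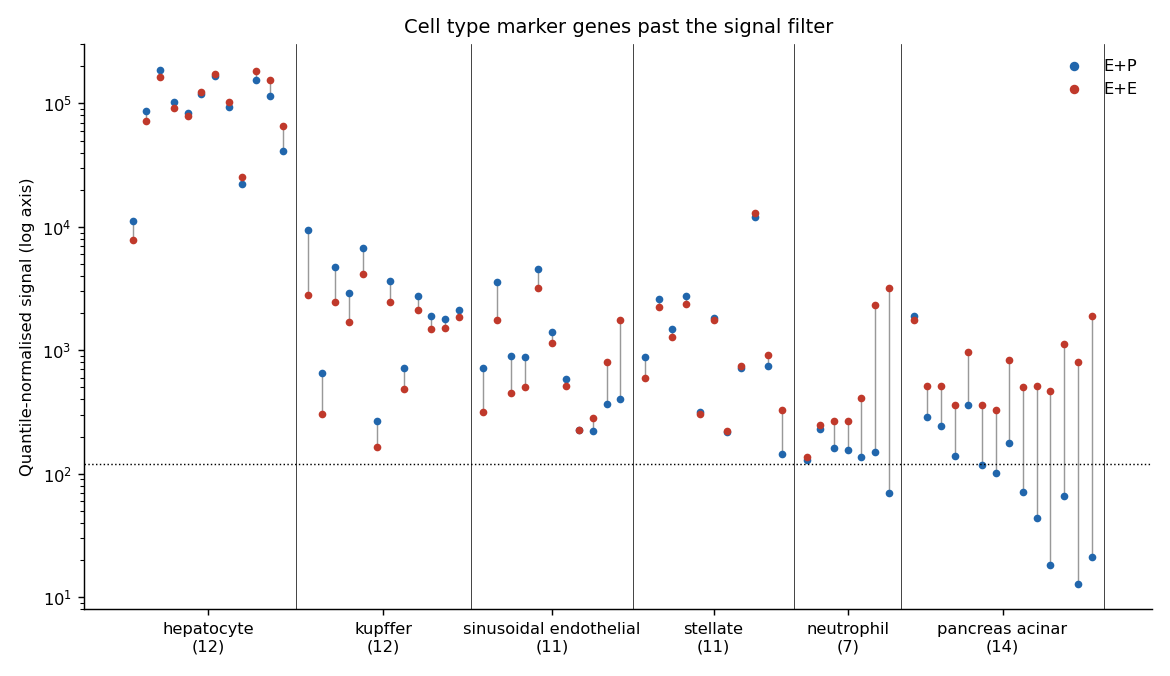
Quantile-normalised signals on a log axis of the cell type markers past the filter, with E+P in blue and E+E in red joined by a line for each gene, ordered within a type by their ratio. Hepatocyte markers differ little, all 12 Kupffer cell markers are lower on E+E, and 13 of 14 acinar markers are higher, most of them from below the dotted filter level. Markers low on both PBS arrays could pass the filter through their signals on P+E and E+E.

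The same ratio in mice that had not met ethylbenzene before, P+E against P+P, shares no array with E+E against E+P and is set beside it. At least 2-fold higher there were 752 genes and at least 2-fold lower 771 genes (6.53% and 6.7%). Of the genes at least 2-fold higher on E+E, 330 were also higher in that ratio, 41.5% of one list and 43.9% of the other, and of those lower, 214 were, 27.5% and 27.8%. Whether the 2 ratios of a gene differ was not tested, since each group had 1 array.

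Some of the highest and lowest ratios were large in both. Cyp2b10 had a signal of 126 on P+P and 33311 on P+E, 197-fold higher against 58.4-fold higher on E+E over E+P, and its E+P signal was 388 where P+P was 126. Lcn2 was at 96.8 on P+P and 58918 on P+E, at least 361-fold higher against 123-fold higher, and Mt2 at 1132 on P+P and 72015 on P+E, 61.3-fold higher against 23.9-fold higher. Each of these 3 genes had a higher signal on E+P than on P+P. Dbp was at 5653 on P+P and 486 on P+E, 10.8-fold lower against 28.8-fold lower, and Tifa at 266 on P+P and 3446 on P+E, 11.3-fold higher against 13.3-fold higher. By contrast, Btbd2 and Ppargc1b, of the 16 lowest, had log2 ratios of -0.10 and -0.69 on P+E over P+P.

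Lists differed in how alike their medians were. The acute phase list had a median log2 ratio of 1.17 here and 1.26 in the mice given PBS first, the clock list -0.68 and -0.62, and the acinar markers 1.68 and 2.34. For liver transcription factors the medians were -1.10 and -0.65, with 11 and 4 members at least 2-fold lower. For sterol genes they were -0.60 and -0.34, with 7 and 1 lower. The ribosome biogenesis list stood at 0.48 and -0.05, with 6 and 0 members at least 2-fold higher, and the unfolded protein and integrated stress list at 0.44 and -0.04. The summed signal of the ribosome biogenesis list was 35229 on E+P, 46752 on E+E, 42508 on P+P and 41320 on P+E. That of the stress list was 154090, 204420, 184440 and 177090 on the same arrays. In both lists the sum was lowest on E+P, and its part in these medians was not tested.

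Some members, picked after their values were seen, stood far apart in the 2 ratios. Foxa2 had a log2 ratio of -1.33 on E+E over E+P and 0.08 on P+E over P+P, and Rnf43 one of -3.19 and -0.70. Msmo1 was at -2.11 and -0.78, Pfkfb3 at 1.50 and -0.16, and Pdia4 at 1.30 and -0.19. Going the other way, Irs2 was at 1.22 and 2.82, Cebpa at -1.18 and -2.03, and Hspa1b at -1.36 and -3.24. The first value of Rnf43 rests on an E+E signal of 24.6, below the filter level, and was -1.93 with that signal raised. The second value of Irs2 rests on a P+P signal of 51.9, also below that level. The P+P array, which differed most in its 18S ribosomal RNA signal and had the highest Pcx ratio, enters each second value of these pairs.

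**Figure D5:**
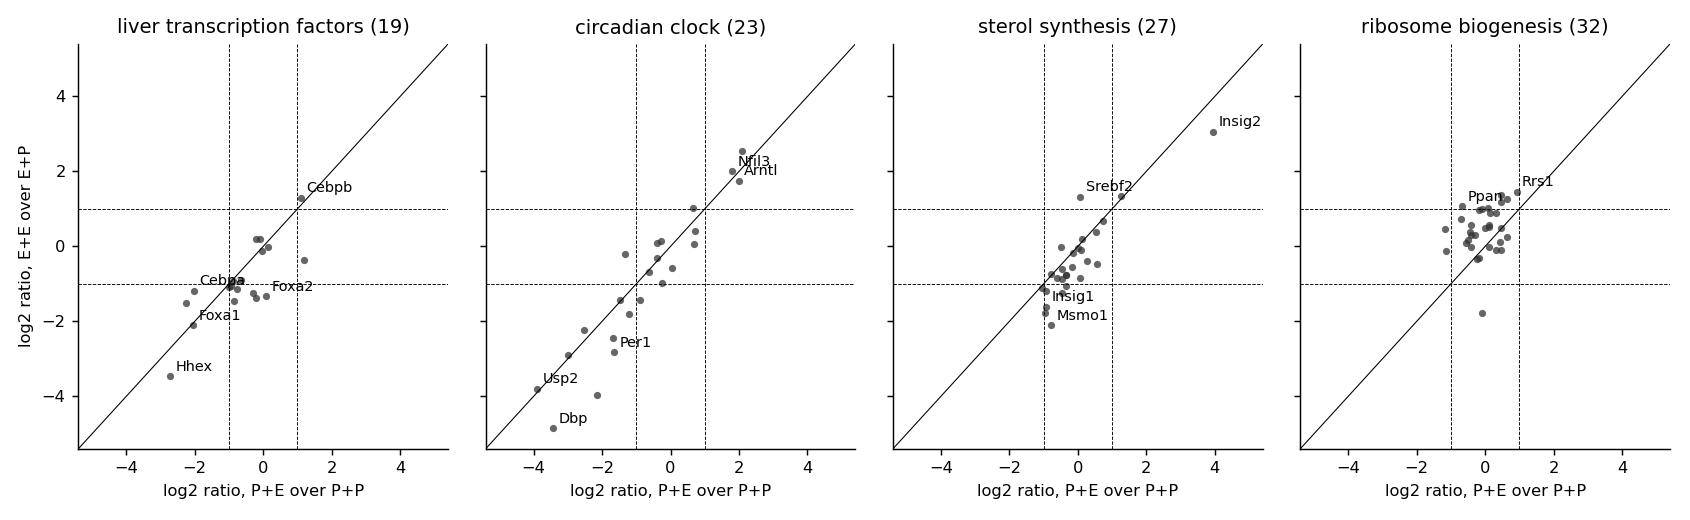
Log2 ratios of E+E to E+P (vertical) against P+E to P+P (horizontal) for the members of 4 lists past the filter, 1 point per gene, with the diagonal as a solid line and 2-fold as dashed lines. Clock genes lie on both sides of the diagonal, 11 above and 12 below (medians -0.68 and -0.62). Among those below are Dbp (-4.85 and -3.43) and Ciart (-3.96 and -2.15). Most ribosome biogenesis genes lie above the diagonal (medians 0.48 and -0.05), and several liver transcription factors lie below it (medians -1.10 and -0.65).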

How the data were processed

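The files that the authors deposited hold intensities, the linear signals of 45101 Affymetrix probe sets on each of 4 arrays. How the authors summarised and scaled them is not given in the sources used here, and the trimmed mean of every array was 500.0. The intensities were quantile-normalized over the 4 arrays, because their log2 medians lay 0.24 apart, and expressed as log2(signal + 43.2), with the pseudocount at the 25th percentile of all signals. Gene names came from the annotation of the platform, brought up to date by Entrez identifier through RefSeq (34945 with 1 symbol, 932 with several and 9160 with none listed). Each of 18193 genes was represented by the probe set of highest mean, and the filter kept means at or above the median of all probe sets. The number of arrays limits the precision, with 1 per group and no test.

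Named genes were the 16 highest and 16 lowest ratios, up to 6 higher and 6 lower members of each list with its 2 of highest signal, cell type markers, 24 fixed genes and up to 8 genes opposite in the other ratio. Some further members of the acute phase and liver transcription factor lists were named after their values were seen. The 41 pathway and 15 cell type lists and all comparisons were chosen with earlier results of these data known. Listed genes that no single-gene probe set measured were not analysed here. Promoter sequences are RefSeq's (GRCm38.p6), and the NF-kB element was searched by its degenerate consensus. The steps were tested on simulated data. Python 3.11.15, pandas 2.3.3 and NumPy 2.4.6 were used.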

Additional observations from a re-analysis of the deposited data

Results flagged for a closer look

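Across all genes past the filter, 17 were at least 2-fold apart in opposite directions on E+E over E+P and on P+E over P+P, with signals below the filter level raised to it. Without raising, opposite calls numbered 32 among the 796 higher genes and 21 among the 777 lower genes. Over all 11513 genes, the ratio of P+E to P+P called 6.7% lower and 6.53% higher. Opposite calls were thus rarer than these shares of all genes. None of these differences was tested. The values below are log2 ratios on that raised scale, E+E over E+P first. Rbmxl2 was at 1.42 and -1.63, Sema6c at 1.44 and -1.30, Camk1g at 1.32 and -1.16, and Prmt6, an arginine methyltransferase, at 1.46 and -1.15. Urb1, a ribosome assembly factor, was at 1.08 and -1.34, and 1700066B19Rik at 1.17 and -1.20. In the other direction, Zfp689 was at -1.31 and 1.23 and Phgdh, the first enzyme of serine synthesis, at -1.05 and 1.97. With probe sets averaged and no signal raised, Sema6c, Urb1, Zfp689 and Phgdh were short of 2-fold on E+E over E+P. Their log2 ratios were then 0.26, 0.079, -0.64 and -0.59. Both Mylpf and Acta1 are markers of skeletal muscle, Mylpf at -1.52 and 1.36 and Acta1 at -1.03 and 3.50. The summed signal of the 6 muscle markers lay between 455 (E+E) and 3153 (P+E), with 757 for P+P and 1107 for E+P, and its part in these values was not tested. On P+E, Acta1 had a signal of 1808.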

How the results depend on the processing

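No paired analysis was possible because each group had 1 array, and for the same reason no replicate could be left out. The 796 higher and 777 lower genes became 515 and 432 with the pseudocount at the median signal, 380 and 290 with the filter at the 75th percentile, 1875 and 1771 without a filter, and 1482 and 1392 where the higher of the 2 signals had to reach the filter level. Under the other alternatives both counts stayed within 1.5 times, and over all settings 49.4% to 56.7% of the calls were higher (50.6% in the values reported).

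With the probe sets of a gene averaged, the list medians were 1.23 for B cell, -0.74 for mesothelium and -1.88 for skeletal muscle markers, and the log2 ratios of Adh7, Lgr5 and Upk1b were 0.22, 0.13 and -0.034. Without probe sets ending in _x_at, _s_at or _a_at, the insulin and IGF list was at 0.10, bile duct markers at 1.16, adipocyte markers at -0.55, skeletal muscle markers at 0.030, Acsl3 at 0.50 and Fabp4 at -0.71. T and NK cell markers were at -0.32 with low signals raised, 0.32 without a filter and 0.56 where the higher signal had to pass, and mesothelium markers at -0.43 and -0.59 under the last 2, and the last put skeletal muscle markers at -1.66. With the stricter filter, the p53 list was at 1.51, neutrophil markers, then S100a8 and S100a9 alone, at 4.23 and adipocyte markers at 1.50. These cell type lists held few genes past the filter.

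Of 237 named genes at least 2-fold apart, 156 were so under every alternative run, 80 were short of it under 1 or more, and the 5 genes named above reversed. Signals near background limit the low genes, and 1 array per group limits all of them.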
